A study of Mus musculus with 20 samples.

Results

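Liver taken after 4.5 h of resuscitation from hemorrhagic shock with severe trauma was compared with liver of non-manipulated mice, across all genes tested. The arrays were chosen by their titles, and 9 of the 20 arrays entered the comparison, 4 at 4.5 h and 5 control. Every mouse was a male C57BL/6 aged 8 to 12 weeks, and 1 value per probe set was measured in whole-liver RNA on an Affymetrix Mouse430_2 array, a chip of short oligonucleotide probes. The 4.5 h mice were anesthetized, operated on, held for 1.5 h in hemorrhagic shock with severe trauma and then resuscitated for 4.5 h. For reference, 4 arrays of mice resuscitated for 1 h after the same shock and trauma and 3 arrays of mice with minor trauma were also used, and 4 arrays taken at the end of shock entered the fit only. The controls were non-manipulated, and the hour of sampling, the resuscitation fluid and the content and timing of the minor trauma are not stated in the labels or in the deposited file. In the comparison with control, injury, surgery, anesthesia and time of day therefore cannot be told apart. Nothing in the labels says that mice were pooled, and the p values measure the spread between arrays.

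The liver answers blood loss and tissue injury on several levels. Hepatocytes, which carry most of its metabolism, switch under IL-6 and IL-1 to making acute phase proteins for the plasma, while Kupffer cells, the resident macrophages, and sinusoidal endothelium sense injury signals through toll-like receptors and release cytokines and chemokines that draw neutrophils. Toll-like receptors and cytosolic nucleic acid sensors can also induce type I interferons, which act through STAT and IRF factors on an interferon-stimulated response element in the promoters of antiviral genes.

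On the first principal component, which held 35.1% of the variance among the 20 arrays, the 4.5 h arrays lay at 55.64 to 65.6 and no other array above 1.96. Within-group correlations were 0.9644 to 0.9742 among the 4.5 h arrays and 0.9576 to 0.9767 among the control arrays. The array labelled control 5 stood apart from the other controls and was most like minor trauma array 2 (across-gene r = 0.983), so values without it are given wherever they differ by more than 1.5-fold or end a call. Hepatocyte markers, 13 of 14 tested, summed to 92820 to 98380 signal units on the 4.5 h arrays and 90830 to 98700 on the control arrays. Quantile normalization makes the brightest values alike on every array, so these sums say little of a change in hepatocyte RNA. Of these markers 2 were called higher and 1 lower at 4.5 h. All levels below are log2 signals after quantile normalization, and the median of an array is 4.60 on that scale. A gene was called, and is said to have risen or fallen, at a limma Benjamini-Hochberg adjusted p of at most 0.05. Log2 fold changes are given with their standard error after ±, or alone, and a mean ± SD is marked as such; control groups have n = 5 and 4.5 h groups n = 4. A gene at or below the array median on every array of the lower group has only a bound there, written as at least N-fold, with the array median standing in for any lower value. Folds of most such dim genes, and of some genes given without a bound, move by over 1.5-fold with the pseudocount.

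Transcript levels at 4.5 h differed from control for a large share of the genes tested. Of 12832 genes tested, 4996 were called (38.9%), of which 1937 were higher (15.1%) and 3059 lower (23.8%) than in control, and over all of them the median log2 fold change was -0.0891. A change of at least 2-fold was found for 786 called genes upward (6.13%) and 818 downward (6.37%). The large changes ran upward, with 249 genes at least 4-fold higher and 76 at least 4-fold lower. On the values as deposited, without normalization between arrays, the median of all genes lay at -0.266 and the calls split into 792 higher and 2125 lower, so the counts of calls in both directions depend on the scaling. Of the called genes named below, Cdh5, Cfb, Cps1, Cpt1a, Epcam, Hspa5, Masp1, Otc, Pf4, Ppbp, Sox9 and Tdo2 were not called on the values as deposited. Counts of list members on those values are given below wherever they differ by over 1.5 times and by at least 3 members. The poly-A spike-in control dap was bright on 10 arrays and near 0 on the other 10, both kinds among control and 4.5 h arrays; within the arrays that carried it 2645 genes were called and within the others 2856, of which 2556 and 2702 were called in the same direction over all arrays. In whole tissue, fewer cells of a type and less RNA per cell cannot be told apart. Against minor trauma 3766 genes were called (29.3%), 1379 higher (10.7%) and 2387 lower (18.6%), and against 1 h 4251 (33.1%), 1914 higher (14.9%) and 2337 lower (18.2%). The control and 4.5 h arrays did not overlap for 3951 genes (30.8%), which is the background for each such remark on a named gene. Of the gene lists below, limma called 0 members in 1 direction against control 25 times, and in 4 of these 1 member had an unadjusted p of at most 0.05 in that direction. Those comparisons share the 4.5 h arrays with the first and are not independent of it. Minor trauma array 3 stood apart in its group, and without it 1188 genes were higher and 1717 lower than in minor trauma.

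**Figure D1:**
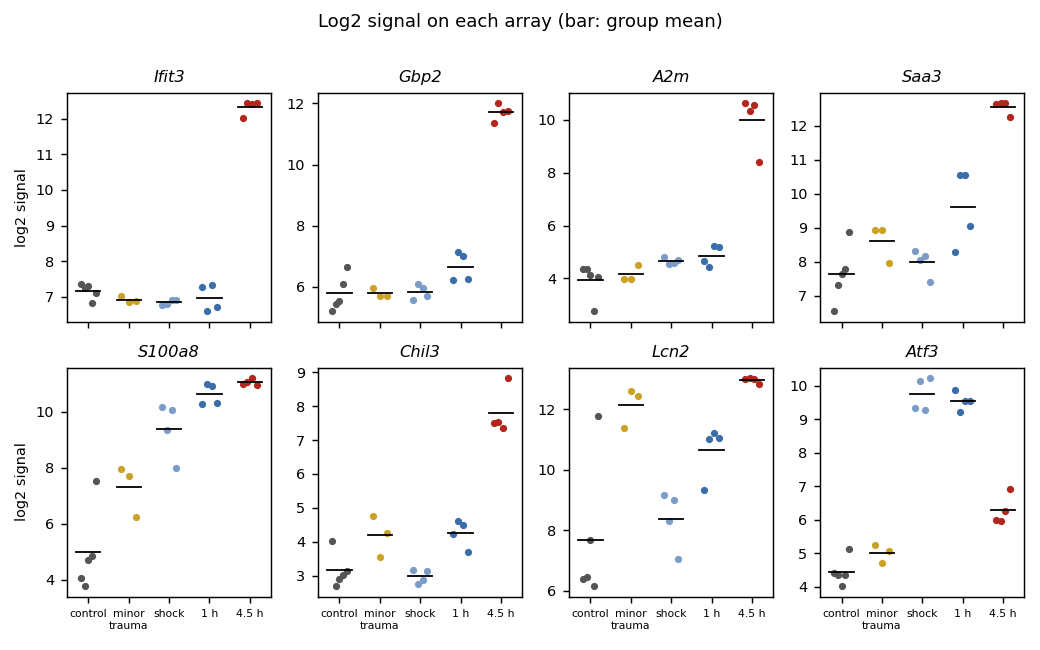
Log2 signal (vertical axis) of 8 genes that rose at 4.5 h, on each array (points) by group (horizontal axis), with the group mean as a bar. Ifit3, Gbp2, A2m and Chil3 stand near the control level in the other groups and high on all 4 arrays at 4.5 h, S100a8 is already high at 1 h, and Lcn2 and S100a8 read highest among the controls on control array 5.

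Interferon-induced genes were higher at 4.5 h almost without exception. Of 35 type I interferon effectors tested, 34 rose against control and 0 fell, with a median log2 fold change of 3.13. All 9 interferon-induced GTPases tested rose too, with a median of 3.45. The same lists against the 1 h group gave 34 of 35 and 9 of 9 members higher, and against minor trauma 35 of 35 and 9 of 9. Ifitm3, an endosomal restriction factor, was the member not called against control, at 0.25 ± 0.12 (adjusted p = 0.0924).

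Ifit3, a member of the IFIT family that binds viral RNA, read 7.36, 7.24, 7.31, 6.83 and 7.11 on control arrays 1 to 5 and 12.01, 12.43, 12.42 and 12.43 on the 4.5 h arrays. The groups were far apart, and at 1 h the values of 7.28, 6.60, 7.34 and 6.72 lay within the range of the controls or below it. The log2 fold change was 5.16 ± 0.15 (35.7-fold, adjusted p = 1.34e-15), though Ifit3 has a near-identical neighbour whose transcripts the probes may share. Cmpk2, a mitochondrial nucleotide kinase, gave 5.52, 5.89, 5.15, 4.89 and 4.96 in control and 10.17, 10.69, 11.04 and 11.51 at 4.5 h, a rise of 5.57 ± 0.27 (adjusted p = 2.59e-12). Rsad2, also called viperin, whose product makes a chain-terminating nucleotide, rose from 7.93, 8.17, 8.05, 7.42 and 8.19 to 12.78, 12.96, 12.97 and 13.22 (5.03 ± 0.22, adjusted p = 1.34e-12). Neither gene's control and 4.5 h arrays overlapped. Ifit1 rose by 5.51 ± 0.31, Ifit2 by 5.40 ± 0.27, Usp18, a deubiquitinase that restrains interferon signalling, by 4.76 ± 0.25, Mx1, a dynamin-like GTPase, by 4.65 ± 0.24, and Oasl1 by 4.56 ± 0.21 (adjusted p at most 2.12e-12). Gbp2, a guanylate-binding protein that attacks the membranes around intracellular pathogens, was the GTPase that rose most. Its levels were 5.20, 5.43, 5.54, 6.11 and 6.65 in control, 6.22, 7.13, 7.01 and 6.25 at 1 h and 11.36, 12.01, 11.73 and 11.77 at 4.5 h. The 4.5 h arrays lay above every array of both groups, and the rise over control was 5.93 ± 0.25 (adjusted p = 1.00e-12). Gbp6 rose by 4.01 ± 0.30, Gbp3 by 3.75 ± 0.22, and the immunity-related GTPases Igtp and Ifi47 by 3.57 ± 0.19 and 3.45 ± 0.20; the Gbp genes are close paralogs, and their probe sets may share transcripts.

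**Figure D2:**
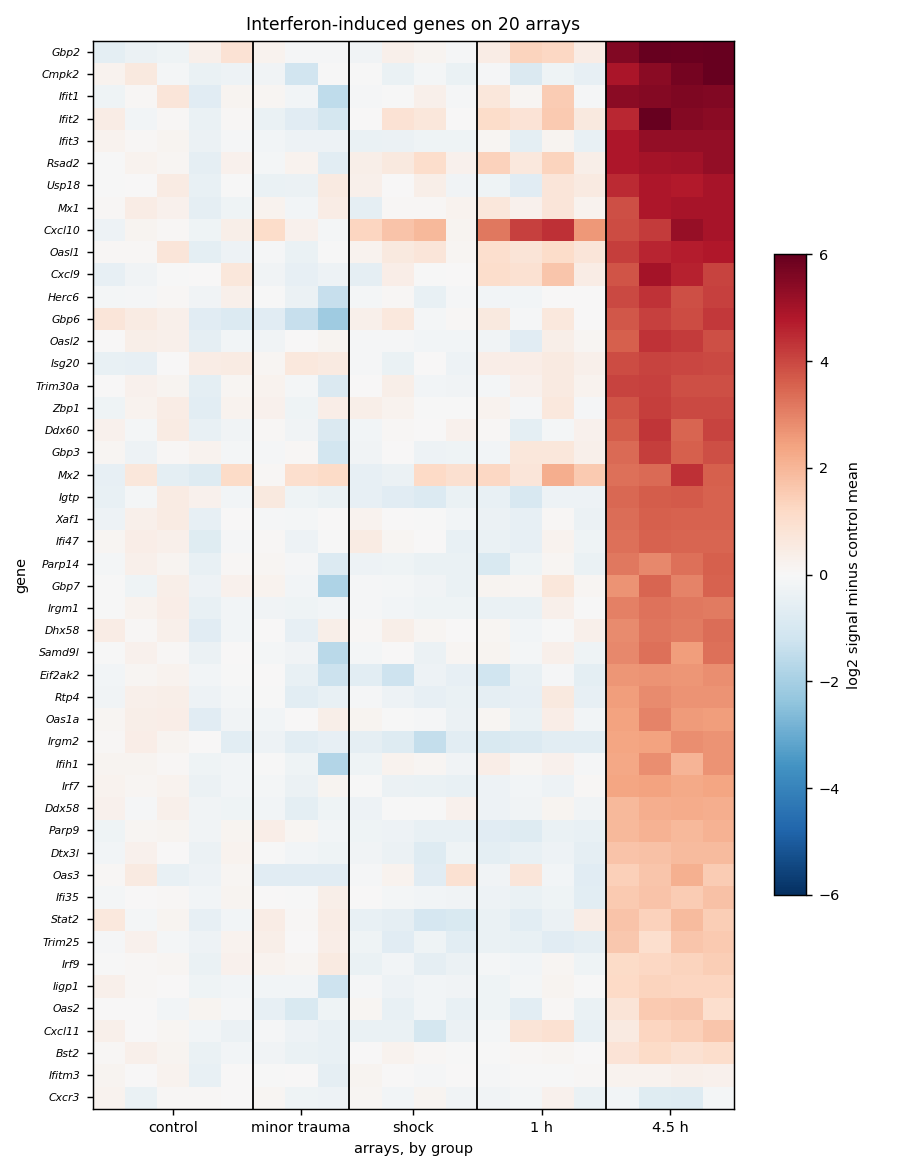
Log2 signal minus the control mean (colour scale from -6 to 6) of the 48 tested genes of the type I interferon, GTPase and interferon-dependent chemokine lists (rows, ordered by fold change at 4.5 h), on the 20 arrays (columns, by group). Nearly every row is pale in control, minor trauma, shock and 1 h and red on all 4 arrays at 4.5 h, while Cxcl10 is red at 1 h as well.

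The promoters of these genes are shown because the members rose together. In 300-base windows from 250 bases before to 50 after the start of each gene (RefSeq, GRCm38.p6), a core of the interferon-stimulated response element, spelled GAAA, any 2 bases, GAAA, searched on both strands with overlapping matches counted, stood in 13 of 26 matched type I interferon effectors (50%) and 6 of 7 matched GTPases (85.7%). Among all 10352 genes tested that had a window the share was 3.7%, and among all 27025 genes with a window in RefSeq 3.99%. Both lists were chosen as interferon-induced genes, so a high share follows from the choice. Elsewhere the core stood in 3 of 11 class I loading genes, 1 of 3 interferon-dependent chemokines and 1 of 24 immediate early factors. It stood in 0 of 11 NF-kB genes, 0 of 10 CC chemokines and 0 of 14 bile acid genes. A kappaB core (GGGA, any 2 bases, TTCC) stood in 3 of 26 effectors and 1 of 7 GTPases, against 1.8% of tested genes. Windows of 4 genes follow with the matches in capitals, 5′ to 3′ on the strand of the gene, where TTTC, any 2 bases, TTTC is the same element read from the other strand: Ifit1 (chr19:34640639-34640938, plus strand), Ifit3 (chr19:34583279-34583578, plus strand), Rsad2 (chr12:26456403-26456702, minus strand) and Gbp2 (chr3:142620413-142620712, plus strand).
Ifit1: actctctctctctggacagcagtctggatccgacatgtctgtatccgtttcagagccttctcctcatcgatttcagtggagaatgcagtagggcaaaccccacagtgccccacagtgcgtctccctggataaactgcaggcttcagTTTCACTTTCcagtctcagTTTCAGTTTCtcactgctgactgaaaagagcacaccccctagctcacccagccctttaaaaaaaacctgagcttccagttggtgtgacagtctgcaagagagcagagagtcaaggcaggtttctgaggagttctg
Ifit3: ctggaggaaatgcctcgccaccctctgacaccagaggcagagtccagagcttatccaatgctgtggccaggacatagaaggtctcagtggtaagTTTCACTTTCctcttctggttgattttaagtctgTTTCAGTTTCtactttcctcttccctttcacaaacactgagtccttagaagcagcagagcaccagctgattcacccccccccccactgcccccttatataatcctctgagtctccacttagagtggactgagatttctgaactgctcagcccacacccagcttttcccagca
Rsad2: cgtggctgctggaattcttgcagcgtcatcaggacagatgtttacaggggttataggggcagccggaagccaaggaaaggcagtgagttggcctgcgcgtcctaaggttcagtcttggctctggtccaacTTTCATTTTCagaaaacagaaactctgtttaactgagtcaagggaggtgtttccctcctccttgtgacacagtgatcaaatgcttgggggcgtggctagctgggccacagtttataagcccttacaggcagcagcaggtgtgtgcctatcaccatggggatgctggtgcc
Gbp2: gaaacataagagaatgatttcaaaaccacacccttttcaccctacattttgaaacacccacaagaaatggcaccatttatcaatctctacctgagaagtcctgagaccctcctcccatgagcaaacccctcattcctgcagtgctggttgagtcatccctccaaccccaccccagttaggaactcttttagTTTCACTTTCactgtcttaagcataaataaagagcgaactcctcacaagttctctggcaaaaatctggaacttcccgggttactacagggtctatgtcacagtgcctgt
Ifit1 and Ifit3 held 2 matches each and Rsad2 and Gbp2 1 each, the first of them 104, 156, 120 and 59 bases before the start. The windows of Cmpk2, Ifit2 and Oasl1, which also rose, did not hold these letters, which says nothing of sites elsewhere or of other spellings.

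Factors that carry the interferon signal were higher as well. Irf7, which amplifies type I interferon production, rose by 2.35 ± 0.14, Stat2 by 1.61 ± 0.22 and Irf9 by 1.28 ± 0.13, the last a part of the STAT complex that binds the element shown above. The RNA sensors rose with them, Ddx58 (RIG-I) by 2.14 ± 0.15, Ifih1 (MDA5) by 2.46 ± 0.25 and Dhx58 by 3.13 ± 0.20 (1.83 with its probe sets averaged), and Zbp1, a sensor of left-handed nucleic acids, by 3.96 ± 0.20. Mlkl, the executor of necroptosis, rose by 2.87 ± 0.24 (adjusted p = 8.71e-09) and stood 3.12 above 1 h on the log2 scale. Peptide loading of MHC class I moved with this group: 11 of 14 members rose and 0 fell (median 1.28). Tap1, the peptide transporter subunit, read 6.39, 6.76, 6.61, 6.16 and 6.50 in control and 9.48, 9.46, 9.60 and 9.47 at 4.5 h without overlap, a rise of 3.02 ± 0.20 (adjusted p = 2.60e-10). The immunoproteasome subunits Psmb9, Psmb8 and Psmb10 rose by 2.17 ± 0.16, 1.94 ± 0.15 and 1.42 ± 0.12. The constitutive proteasome gave 3 higher and 2 lower of 31, and limma called 0 of them in either direction on the values as deposited, where 0 higher and 1 lower member had an unadjusted p of at most 0.05. MHC class II genes, which mark antigen-presenting cells, went the other way, with 5 of 6 lower, among them H2-DMa (-1.19), H2-Aa (-0.93) and Cd74 (-0.89), while their master regulator Ciita was at -0.16 ± 0.23 (adjusted p = 0.623).

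Among chemokines and cytokines some were higher at 4.5 h than at 1 h and others lower. Cxcl9, a ligand of Cxcr3 on T and NK cells, read 6.85, 7.12, 7.32, 7.38 and 8.03 in control, 8.42, 8.26, 9.01 and 7.79 at 1 h and 11.10, 12.31, 11.95 and 11.40 at 4.5 h. It rose by 4.35 ± 0.26 over control (adjusted p = 6.29e-11) and by 3.32 ± 0.28 over 1 h (adjusted p = 1.17e-08). Cxcl10, a ligand of the same receptor, was at 8.79, 9.73, 9.99 and 8.21 at 1 h and 9.50, 9.82, 10.82 and 10.55 at 4.5 h against 5.29, 5.78, 5.69, 5.33 and 5.94 in control. Its rise over control was 4.57 ± 0.37 (adjusted p = 5.78e-09), and the 1 h and 4.5 h arrays overlapped (0.99 ± 0.39, adjusted p = 0.0579). Ccl5, which draws T cells and monocytes, rose by 4.72 ± 0.31 over control and 2.18 ± 0.33 over 1 h. Cxcl2, a neutrophil attractant, ran the other way in time, with 10.64, 11.15, 11.13 and 10.66 at 1 h and 8.28, 9.29, 8.92 and 7.97 at 4.5 h against 3.62, 3.50, 3.90, 3.97 and 4.91 in control. It was above control (4.63 ± 0.42, adjusted p = 2.82e-08) and below the 1 h level (-2.28 ± 0.45, adjusted p = 4.84e-04). Of 15 CC chemokines and receptors, 8 rose and 2 fell; Ccl3 rose at least 7.17-fold (means 3.01 ± 0.16 in control and 7.45 ± 0.43 at 4.5 h, SD), and Ccl2, the main monocyte attractant, by 3.53 ± 0.43. Cxcl12, which keeps leukocytes in bone marrow and tissue niches, fell (-1.43 ± 0.14, adjusted p = 5.71e-08). Cxcl1 rose by 3.58 ± 0.61, and by 4.36 without control array 5.

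The interleukin-1 and TNF systems gave 14 members higher and 1 lower of 17. Il1rn, the antagonist of the IL-1 receptor, rose by 3.48 ± 0.22 over control and 1.49 ± 0.23 over 1 h, and the decoy receptor Il1r2 by 3.21 ± 0.29 over control. Il1b, the cytokine itself, read 4.78, 5.47, 5.34, 5.03 and 5.65 in control, 9.36, 9.49, 9.33 and 9.87 at 1 h and 7.35, 8.52, 8.70 and 7.17 at 4.5 h. All 4.5 h values lay between those of the other groups just named (2.68 ± 0.38 over control, adjusted p = 1.13e-05, and -1.58 ± 0.40 against 1 h, adjusted p = 0.00477). Tnfaip3 (A20), an inhibitor of NF-kB, rose by 3.39 ± 0.34 over control and was lower than at 1 h (-1.60 ± 0.36). Tnf rose at least 2.26-fold (means 3.68 ± 0.44 and 5.78 ± 0.69, SD; adjusted p = 5.03e-05). Of 13 NF-kB subunits and inhibitors 11 rose and 0 fell, led by Ikbke, a kinase shared with the interferon pathway, at 2.58 ± 0.22, and by the inhibitor-like proteins Bcl3 and Nfkbiz at 2.39 ± 0.26 and 2.27 ± 0.29. In the IL-6 family 12 of 17 rose and 0 fell. Socs3, the feedback inhibitor of IL-6 signalling, rose by 3.02 ± 0.52, Cebpd by 2.81 ± 0.35, and Osmr, the oncostatin M receptor, by 2.34 ± 0.21, whereas Il6 itself was higher than in control (at least 2.80-fold, means 3.37 ± 0.19 and 6.09 ± 0.47, SD) and lower than at 1 h (-1.84 ± 0.47, adjusted p = 0.00439). Cebpd was not called higher than in minor trauma.

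Receptors that sense injury and microbes were mostly higher. Of 19 toll-like receptors and nucleic acid sensors 11 rose and 1 fell. Tlr2, a receptor for lipoproteins, read 4.999, 4.89, 5.06, 4.63 and 5.91 in control and 9.46, 9.88, 10.09 and 9.73 at 4.5 h, without overlap, and rose by 4.69 ± 0.34 (adjusted p = 8.66e-10). Cd14, the coreceptor that hands lipopolysaccharide to Tlr4, rose by 4.60 ± 0.29, Tlr3, the endosomal receptor for double-stranded RNA, by 2.79 ± 0.22, and Irak3, an inhibitor of the pathway, by 3.32 ± 0.24. Tlr4 itself was at 0.20 ± 0.33 (adjusted p = 0.679), and Tlr5, the flagellin receptor, fell (-0.98). Among adhesion molecules 8 of 12 rose (5 on the values as deposited) and 0 fell: Selp (P-selectin) by 3.04 ± 0.23, and Icam1 by 2.51 ± 0.29, the latter from a level at 1 h that was higher still (-1.02 ± 0.30, adjusted p = 0.0131). Slfn4, a Schlafen gene of myeloid cells, gave the largest fitted rise of all named genes, 4.03, 3.20, 3.02, 3.39 and 4.11 in control against 10.21, 10.48, 10.28 and 10.34 at 4.5 h. With the control arrays at or below the array median, the fold is at least 52.8 (adjusted p = 2.46e-12). Acod1, which makes itaconate in activated macrophages, rose at least 14.4-fold (means 2.87 ± 0.12 and 8.45 ± 0.18, SD), and Hcar2, a receptor for ketone bodies and niacin, at least 9.84-fold (means 3.10 ± 0.16 and 7.90 ± 0.42, SD). Hcar2 was not called between 4.5 h and 1 h (-0.15 ± 0.41, adjusted p = 0.812). Calhm6, a channel protein of macrophages, rose by 5.16 ± 0.26 (adjusted p = 5.31e-12).

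Neutrophil markers were mostly higher, and markers of Kupffer cells and sinusoidal endothelium mostly lower. Of 10 neutrophil markers tested 8 rose and 0 fell, and their summed level was 4354 to 4948 signal units at 4.5 h, 2954 to 4630.0 at 1 h, 336 to 617 in minor trauma and 134 to 446 in control. Limma called 0 of them between 4.5 h and 1 h, and 1, Il1r2, had an unadjusted p of at most 0.05 (0.75 ± 0.31). S100a8, a subunit of calprotectin, read 4.04, 3.76, 4.71, 4.85 and 7.53 in control, 10.29, 10.99, 10.94 and 10.32 at 1 h and 11.02, 11.09, 11.22 and 10.95 at 4.5 h. Even the high value on control array 5 lay below every 4.5 h array (6.09 ± 0.56, adjusted p = 3.06e-08, and 6.73 without that array). S100a9, the other subunit, rose by 5.80 ± 0.51 and Mmp8, a granule collagenase, by 3.07 ± 0.22, while the primary granule genes Mpo and Elane, which are made in bone marrow precursors, were at 0.025 ± 0.26 and 0.39 ± 0.27, neither called (adjusted p = 0.954 and 0.278). Monocyte and inflammatory macrophage markers gave 6 higher (3 on the values as deposited) and 4 lower of 12, and their summed level ran from 2758 to 3628 at 4.5 h and 2650.0 to 4882 in control. Chil3, a lectin of recruited macrophages, rose at least 9.14-fold (means 3.16 ± 0.51 and 7.80 ± 0.69, SD), Ms4a4c by 2.73 ± 0.19 and Plac8 by 2.14 ± 0.15, whereas Csf1r, the macrophage growth factor receptor, fell (-1.34) and Lyz2 (-1.06). Chil3, Ms4a4c and Plac8 were also higher than at 1 h, by 3.54 ± 0.34, 2.68 ± 0.20 and 1.60 ± 0.16.

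Most Kupffer cell markers fell. Of 16 markers 14 fell and 1 rose, and their sum of 2065 to 2717 at 4.5 h lay below the 4298 to 5364 at 1 h and the 5883 to 7671 in control. Cd163, the receptor for hemoglobin bound to haptoglobin, read 7.86, 7.36, 7.90, 7.62 and 8.54 in control and 4.86, 5.11, 5.66 and 5.23 at 4.5 h. The groups did not overlap (-2.64 ± 0.20, adjusted p = 1.84e-09). Vsig4, a complement receptor, fell (-2.34), Cd5l (-1.67) and Clec4f, the lectin found on mouse Kupffer cells (-1.56). Marco, a scavenger receptor, was the member that rose (1.36 ± 0.35, adjusted p = 0.00408), and Cd68 was not called (0.42 ± 0.18). Sinusoidal endothelial markers gave 11 lower and 2 higher of 18, with sums of 2172 to 2412 at 4.5 h and 3180.0 to 4180.0 in control. Kdr (VEGF receptor 2) fell from 7.79, 7.68, 6.98, 7.36 and 7.11 to 5.55, 5.09, 4.16 and 5.08, a change of -2.41 ± 0.23 (adjusted p = 6.46e-08) with no overlap. Tek, the angiopoietin receptor, fell (-1.79) and Clec4g (-1.80), but Lyve1, a hyaluronan receptor, rose by 1.77 ± 0.34. The other riser, Cdh5 (0.58 ± 0.20), was not called when 4.5 h array 2 or 4 or control array 4 or 5 was left out. Wnt2, which sinusoidal endothelium supplies to pericentral hepatocytes, fell (-1.56, adjusted p = 1.51e-05). Stellate cell markers were mostly not called (13 of 17), but Lrat, which stores retinol as ester, fell (-1.95). T and NK cell markers gave 4 higher and 1 lower of 9, with the granzymes Gzmb and Gzma up by 2.62 ± 0.39 and 1.58 ± 0.33, while Cd3d and Cd8a were at -0.022 ± 0.41 and -0.16 ± 0.30, neither called. Among 10 B cell markers 1 rose, and 9 were not called.

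**Figure D3:**
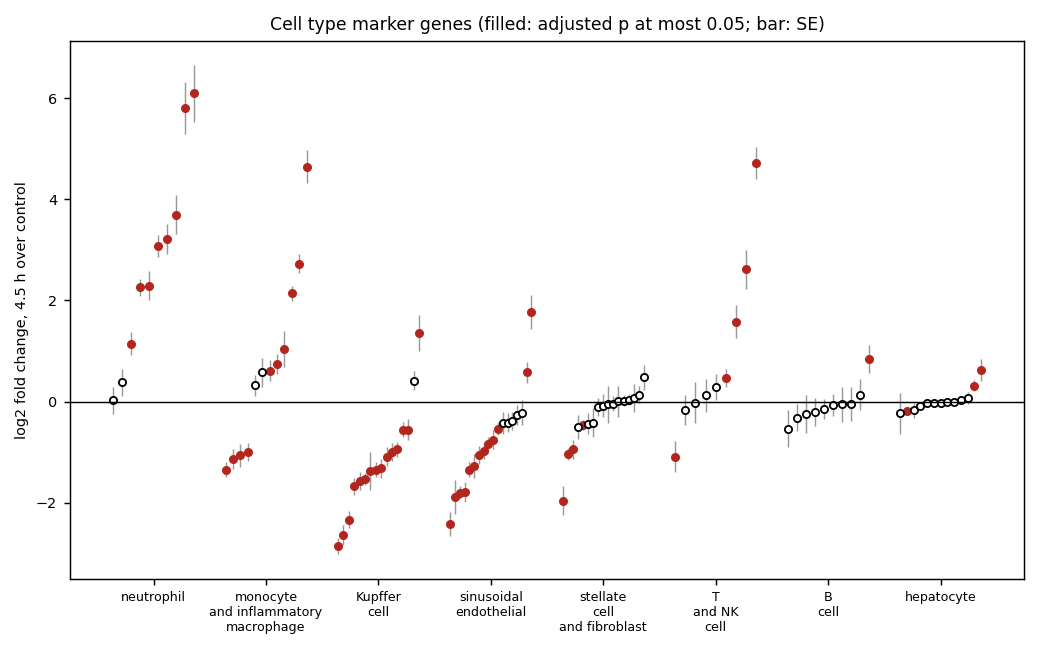
Log2 fold change at 4.5 h over control (vertical axis) of each tested marker gene, by cell type (horizontal axis), with its standard error; filled points passed the test. Neutrophil markers lie above 0, 14 of 16 Kupffer cell markers and 11 of 18 sinusoidal endothelial markers are filled points below 0, and hepatocyte markers lie close to 0.

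The positive acute phase genes mostly rose, while most negative acute phase and plasma protein genes were not called. Of 29 positive acute phase genes 23 rose over control and 0 fell (median 1.43). A2m, a protease inhibitor that is a major acute phase protein in the rat, read 4.35, 4.35, 4.14, 2.76 and 4.06 in control, 4.65, 4.43, 5.22 and 5.18 at 1 h and 10.63, 10.35, 10.57 and 8.40 at 4.5 h. The 4.5 h arrays were above all others, array 4 by less than the rest, and the rise was at least 41.7-fold (adjusted p = 8.10e-11). Saa3, the serum amyloid A made by macrophages and activated hepatocytes, rose by 4.91 ± 0.42 over control and 2.94 ± 0.44 over 1 h. Lcn2, which binds bacterial siderophores, read 6.38, 6.44, 7.67, 6.15 and 11.78 in control, 11.37, 12.62 and 12.43 in minor trauma and 12.999, 13.04, 13.01 and 12.86 at 4.5 h. The minor trauma arrays overlapped neither the 4.5 h arrays nor control arrays 1 to 4, and control array 5 lay among them (5.29 ± 0.79 over control, 6.32 without control array 5). Against minor trauma Lcn2 was at 0.83 ± 0.90 and was not called (adjusted p = 0.528). More widely, 7 of the 29 genes were higher and 1 lower than in minor trauma (6 and 0 without minor trauma array 3), among the higher ones A2m (5.82), Saa3 (3.94), Cd14 (3.84) and Il1rn (2.97). Saa1 and Saa2, near-identical genes whose signals cannot be fully separated, rose by 1.86 ± 0.53 and 2.97 ± 0.74 over control (Saa2 by 3.68 without control array 5) and stood at 0.033 ± 0.61 and 0.15 ± 0.84 against minor trauma, neither called (adjusted p = 0.976 and 0.923). The metallothioneins Mt1 and Mt2, which bind zinc, rose by 3.04 ± 0.58 and 3.45 ± 0.65, or by 3.77 and 4.29 without control array 5, and were not called against minor trauma (0.23 ± 0.66 and 0.29 ± 0.74). Orm2 rose by 3.27 ± 0.40 and Steap4, a metalloreductase, by 3.10 ± 0.40. Hp, Hpx and Fgg were at 0.11, 0.071 and 0.15 and not called, though Fgg was called without control array 5, at 0.18.

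Of 15 negative acute phase and plasma protein genes 3 fell (20%, against 23.8% over all genes) and 0 rose. Albumin (Alb) was at 3.06e-04 ± 0.060, transthyretin (Ttr) at 0.033 ± 0.048 and Ahsg (fetuin A) at -0.084 ± 0.060, none of them called. Albumin read 13.15, 13.29, 13.21, 13.19 and 13.22 in control and 13.31, 13.24, 13.06 and 13.24 at 4.5 h, near the upper end of the scale, where signals can saturate. Quantile normalization also makes the highest values alike on every array, so changes of such bright genes may not show. Igfals, which holds IGF1 in the circulating ternary complex, fell (-1.51, adjusted p = 9.84e-07). In coagulation 5 of 25 rose and 10 fell (20% and 40%, against 15.1% and 23.8% over all genes), but 2 and 6 on the values as deposited. The genes of clotting factor 7 (F7), heparin cofactor 2 (Serpind1) and plasma kallikrein (Klkb1) fell (-0.66, -0.79 and -0.999), and tissue factor (F3) fell at least 1.38-fold (means 5.07 ± 0.55 in control and 3.91 ± 0.52 at 4.5 h, SD), while thrombomodulin (Thbd) and the urokinase receptor (Plaur) rose by 1.77 ± 0.28 and 1.40 ± 0.19. In complement 4 of 21 rose and 8 fell (19% and 38.1%, against 15.1% and 23.8% over all genes), with the 3 chains of C1q, which macrophages make, at -1.32, -0.94 and -1.34. On the values as deposited 1 of the 21 rose and 3 fell, beside 792 and 2125 of all 12832 genes. Complement genes of hepatocyte origin moved less, such as Cfb at 0.42 ± 0.11 and Masp1 at -0.56 ± 0.12. Iron handling gave 5 higher and 4 lower of 17 (29.4% and 23.5%, against 15.1% and 23.8% over all genes), so its share of falls was that of all genes. Its steep falls were ferroportin and hemojuvelin. Slc40a1 (ferroportin), the iron exporter, which is also counted among the Kupffer cell markers, read 10.52, 10.39, 10.25, 10.66 and 10.14 in control and 7.61, 6.97, 7.85 and 7.72 at 4.5 h, and fell (-2.86 ± 0.16) without overlap (adjusted p = 1.72e-11). Hjv (hemojuvelin), the coreceptor that drives hepcidin, fell (-2.69 ± 0.23, adjusted p = 1.00e-08), while hepcidin (Hamp) was at 0.29 ± 0.14 and not called (adjusted p = 0.0949), or at 0.41 and called without control array 5 (adjusted p = 0.0108). Slc39a14, which takes up zinc and non-transferrin iron, rose by 2.11 ± 0.28 and Hmox1, which breaks down heme, by 2.47 ± 0.36. Against minor trauma Slc39a14 was higher by no more than 0.574.

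The early response genes had come down from 1 h but not all the way. Of 30 immediate early factors 20 were higher than control and 0 lower, whereas 22 were lower than at 1 h and 1 higher. Atf3, a stress-induced repressor, read 4.41, 4.35, 4.02, 4.36 and 5.12 in control, 9.87, 9.22, 9.54 and 9.53 at 1 h and 5.98, 5.96, 6.26 and 6.93 at 4.5 h. The 4.5 h values lay between those of the other groups, with differences of 1.83 ± 0.24 from control (adjusted p = 4.73e-06) and -3.26 ± 0.26 from 1 h (adjusted p = 5.02e-09). Fos differed by 1.48 ± 0.26 from control and -2.33 ± 0.27 from 1 h, and Egr1 by 2.04 ± 0.43 and -1.85 ± 0.45. Ier3 and Btg2 stayed further up, at 3.44 ± 0.30 and 3.09 ± 0.20 over control, and Myc was not called over control (0.39 ± 0.30) and was lower than at 1 h (-1.63). Gadd45b, which feeds stress signals to MAP kinases, rose by 4.35 ± 0.65 (or 5.07 without control array 5 and 2.60 with its probe sets averaged), Cdkn1a (p21) by 3.79 ± 0.49, Gadd45g by 3.14 ± 0.52 and the death receptor Fas by 2.51 ± 0.23. Of that list 12 of 17 rose and 2 fell, among them Sesn1 at -1.59. In the Bcl2 family 9 of 14 rose (3 on the values as deposited) and 3 fell, the latter led by the killer gene Bik at -2.31 ± 0.28.

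Hypoxia-inducible genes gave 19 higher of 25 and 0 lower. Pfkfb3, which makes the activator of glycolysis fructose-2,6-bisphosphate, rose by 3.24 ± 0.46 (2.24 with its probe sets averaged), Ddit4 (REDD1) by 2.65 ± 0.32, Ankrd37 by 2.12 ± 0.61 and Slc2a1 (GLUT1) by 1.68 ± 0.23, while Vegfa was at 0.25 ± 0.18 (adjusted p = 0.292). Of 20 heat shock genes 8 rose (4 on the values as deposited) and 2 fell; Hspa1a and Hspa1b, whose transcripts are nearly identical, rose by 2.29 ± 0.38 and 2.24 ± 0.29, while the mitochondrial chaperonin Hspd1 was at -0.14 and not called. Among endoplasmic reticulum chaperones and sensors 11 of 23 rose (6 on the values as deposited) and 1 fell, with Creld2 at 2.04 ± 0.28, Hspa5 (BiP) at 0.52 ± 0.13 and the sensor Ern1 (IRE1) down (-0.92). With its probe sets averaged Ern1 was at -0.157 and not called. The integrated stress response gave 9 higher (3 on the values as deposited) and 1 lower of 18, with Nupr1 at 2.08 ± 0.36 and Ddit3 (CHOP) at 1.29 ± 0.24. NRF2 targets ran lower, 7 of 16 against 2 higher, with the glutathione synthesis subunit Gclm down (-1.01) and Gsta2 (-1.33). Of 23 glucocorticoid-inducible genes 13 rose and 2 fell, and the receptor's classical targets Fkbp5, Tsc22d3 and Zbtb16 were at 0.82 ± 0.35, -0.52 ± 0.26 and 0.40 ± 0.27, none called. Fkbp5 was called, at 1.13 (adjusted p = 0.00527), without control array 5, and also without control array 4 or 4.5 h array 4, and without control array 5 16 of the list rose. Against minor trauma 5 of these 23 were higher and 1 lower, and without minor trauma array 3 the counts were 4 and 2.

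On the metabolic side, most genes of bile acid synthesis were lower. Cyp7a1, the rate-limiting enzyme of bile acid synthesis, read 9.58, 7.89, 10.55, 10.41 and 9.21 in control, 7.73, 7.11, 7.90 and 8.26 at 1 h and 4.94, 5.02, 5.26 and 5.42 at 4.5 h. Control and 4.5 h arrays did not overlap, and the log2 fold change was -4.37 ± 0.42 (20.7-fold, adjusted p = 6.18e-08), or -3.30 when its probe sets were averaged. Of the 20 genes in this list 14 fell and 2 rose. Cyp8b1, the sterol 12-alpha-hydroxylase that sets the share of cholic acid, fell (-1.92), Akr1d1, a reductase of the sterol ring (-1.78), and Nr1h4 (FXR), the bile acid receptor (-1.57). Klb and Fgfr4, which together receive the intestinal hormone FGF15, fell (-1.31 and -0.89), whereas Nr0b2 (SHP), the repressor that FXR induces, was at -0.23 ± 0.30 and not called (adjusted p = 0.579). Of 18 hepatobiliary transporters 12 fell and 1 rose. Slc10a1 (NTCP), which takes bile acids up from blood, fell (-0.83) and Abcb11 (BSEP), which exports them to bile (-0.79), and Abcg8, part of the sterol exporter (-1.22). The member that rose was Slc10a2, the apical bile acid transporter (1.86 ± 0.43, adjusted p = 0.00152). Limma called 0 of the 18 higher against minor trauma or against 1 h, where the largest differences were 0.63 and 0.64. In that direction 1 and 0 members had an unadjusted p of at most 0.05.

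Genes of drug metabolism were lower in large number and by small amounts. Of 30 cytochromes P450 of families 1 to 3 and their receptors 16 fell and 3 rose, and of 32 conjugation enzymes 23 fell and 2 rose (medians -0.25 and -0.53). On the values as deposited 7 cytochrome genes fell and 1 rose, 11 fell after median centring, and 14 conjugation enzymes fell as deposited. Nr1i3 (CAR), a nuclear receptor that induces these enzymes, read 8.90, 8.13, 8.88, 10.11 and 8.66 in control and 7.19, 6.60, 7.06 and 7.45 at 4.5 h, and fell (-1.86 ± 0.28) without overlap (adjusted p = 2.07e-05). Cyp2r1, a vitamin D hydroxylase, fell (-1.02), Cyp1a2 (-0.58) and Cyp3a25 (-0.65), while Cyp2e1 was at -0.024 ± 0.044. Cyp2b10, the classical CAR target, went the other way: 5.91, 4.72, 3.82, 6.14 and 11.83 in control, 11.45, 12.26 and 12.36 in minor trauma and 10.70, 11.27, 11.33 and 10.40 at 4.5 h. Control array 5 read like the minor trauma arrays, and the difference of 4.44 ± 0.96 over control became 5.78 without it and 3.78 without control array 3. Against minor trauma Cyp2b10 was at -1.10 ± 1.09 (adjusted p = 0.491). Ugt2b35 fell (-2.06) and Gstm4 (-1.02), and Sult1e1, the estrogen sulfotransferase, rose by 3.03 ± 0.49 (adjusted p = 4.75e-05); Cyp2c, Ugt2b and Gstm genes are close paralogs, and their probe sets may share transcripts.

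**Figure D4:**
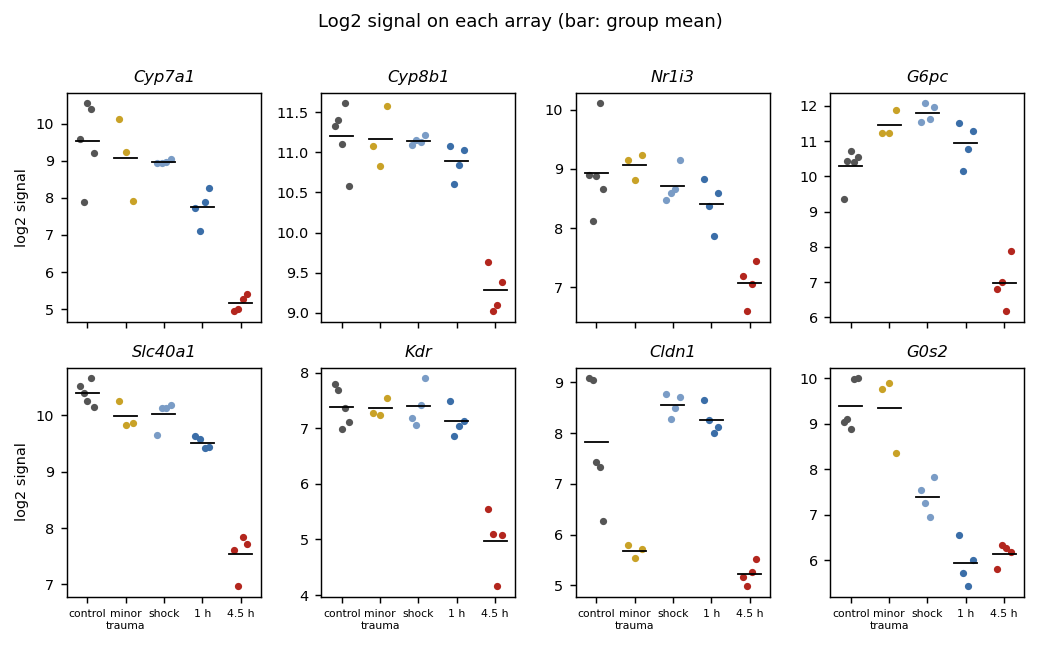
Log2 signal (vertical axis) of 8 genes that fell at 4.5 h, on each array (points) by group (horizontal axis), with the group mean as a bar. Cyp8b1, Nr1i3, Slc40a1 and Kdr are lowest on the 4.5 h arrays, the means of Cyp7a1 and G0s2 are below control at 1 h as well, and Cldn1 reads low in minor trauma too.

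Glucose and lipid genes fell at selected steps. G6pc, glucose-6-phosphatase, the last step of glucose release, read 9.37, 10.44, 10.72, 10.41 and 10.56 in control, 11.52, 10.17, 10.77 and 11.29 at 1 h and 6.80, 6.99, 6.17 and 7.90 at 4.5 h. Every 4.5 h array lay below every other (-3.33 ± 0.31 against control, adjusted p = 3.45e-08, and -3.97 ± 0.33 against 1 h, adjusted p = 9.04e-09). Pck1, the other key enzyme of gluconeogenesis, was at -0.17 ± 0.15 and not called (adjusted p = 0.406), and the coactivator Ppargc1a fell (-1.45). Igfbp1, which insulin represses, rose by 2.36 ± 0.33 and Pdk4, which spares pyruvate, by 2.18 ± 0.43. Slc2a2 (GLUT2), the hepatocyte glucose transporter, fell (-1.25), and in glycolysis and glycogen handling 6 of 15 fell (2 on the values as deposited) and 2 rose. These shares were 40% lower and 13.3% higher, against 23.8% and 15.1% over all genes. On the values as deposited 2125 of all 12832 genes fell. Of 18 lipogenic genes 8 fell against control (5 on the values as deposited) and 0 rose, and 12 were lower than at 1 h. Acly, which supplies cytosolic acetyl-CoA, fell (-1.17) and the regulator Srebf1 (-0.96), while Fasn, lower than at 1 h (-2.11), was not called against control (-0.62 ± 0.30). G0s2, the inhibitor of adipose triglyceride lipase, read 9.03, 9.10, 8.90, 9.98 and 10.01 in control, 6.57, 5.73, 5.44 and 6.01 at 1 h and 5.81, 6.34, 6.28 and 6.19 at 4.5 h. It fell (-3.25 ± 0.30) against control and was not called between 4.5 h and 1 h (0.22 ± 0.32, adjusted p = 0.647). Hilpda, another inhibitor of that lipase, rose by 2.13 ± 0.28, and of the 17 droplet and lipolysis genes 7 fell and 1 rose, with the droplet coat gene Plin5 at -1.08 and Lpin2 at -1.53. Of 24 genes of PPARalpha and fatty acid oxidation 8 fell and 1 rose (33.3% and 4.17%, against 23.8% and 15.1% over all genes). On the values as deposited 4 of the 24 fell, close to the share over all genes there (2125 of 12832). Ppara was at -0.70 and Cpt1a, the gate of mitochondrial oxidation, at -0.60. With its probe sets averaged Cpt1a was at -0.43 and not called. Cholesterol synthesis gave 6 lower and 1 higher of 17 (35.3% and 5.88%), with Mvk at -1.65 ± 0.34. Against minor trauma 3 of the 17 were lower (17.6%, against 18.6% over all genes), and the median of the list was 0.15. Limma called 0 higher there, and 2 had an unadjusted p of at most 0.05 in that direction. Apolipoproteins were mostly not called (16 of 19); Mttp, which loads lipid onto apolipoprotein B, fell (-0.74) and the cholesterol exporter Abca1 rose by 1.56 ± 0.24.

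Amino acid breakdown fell widely, 24 of 33 genes against 2 that rose (median -0.51). The tryptophan pathway enzymes Kynu, Afmid and Ido2 fell (-1.67, -1.44 and -1.26), histidase (Hal) (-1.21) and proline dehydrogenase (Prodh) (-1.28). Kynu read 10.78, 10.33, 10.59, 9.81 and 9.71 in control and 8.65, 8.42, 8.56 and 8.69 at 4.5 h, and the groups did not overlap (adjusted p = 1.93e-07). Tdo2, the first enzyme of the same pathway, was at -0.20 ± 0.051. In the urea cycle and ammonia handling 7 of 16 fell (2 on the values as deposited and 4 after median centring) and 2 rose, but the cycle enzymes moved little: Otc fell (-0.32), and Ass1, Asl and Arg1 were at -0.23 ± 0.40, -0.34 ± 0.17 and -0.048 ± 0.055, none called against control. The shares of the list were 43.8% lower and 12.5% higher, against 23.8% and 15.1% over all genes. On the values as deposited 2125 of all 12832 genes fell. Ass1 was higher than at 1 h, by 1.56 ± 0.42 (adjusted p = 0.00739). Ddc, aromatic amino acid decarboxylase, which makes dopamine and serotonin, fell from 10.13, 10.52, 10.28, 8.74 and 7.86 to 6.77, 5.93, 5.85 and 7.07 (-3.10 ± 0.42, adjusted p = 5.21e-06).

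Lists of hepatocyte regulators and endocrine genes held members that changed in both directions. Of 20 liver-enriched transcription factors 9 fell and 3 rose: Nr2f6 fell (-1.62), Foxa1 (-1.22) and Cebpa (-1.18), while its family members Cebpd and Cebpb rose by 2.81 ± 0.35 and 1.03 ± 0.19. With its probe sets averaged Cebpd was at 1.95. Against minor trauma limma called 0 of the 20 higher, with a largest difference of 0.93. In that direction 4 had an unadjusted p of at most 0.05. In the growth hormone and IGF axis 4 of 21 rose and 5 fell (19% and 23.8%, against 15.1% and 23.8% over all genes), with 2 lower on the values as deposited. Irs1, an insulin receptor substrate, fell (-2.29), and Irs2, its paralog, rose by 1.09 ± 0.26. Socs2, the feedback inhibitor of growth hormone signalling, rose by 2.28 ± 0.46, and Igf1 was at -0.059 ± 0.082 and not called. Among hepatokines and growth factors 8 of 21 fell and 4 rose. Inhbe, the activin E subunit, read 7.18, 6.88, 6.83, 7.46 and 8.08 in control, 8.32, 8.11 and 8.18 in minor trauma and 4.35, 5.06, 4.51 and 4.92 at 4.5 h, a fall of -2.58 ± 0.22 against control (adjusted p = 1.20e-08). Inhbb, the activin B subunit, moved the opposite way (3.56 ± 0.28, adjusted p = 4.12e-09, and 2.43 with its probe sets averaged), as did its binding protein follistatin (Fst, 2.15 ± 0.45). Nrg4, a secreted ligand of ErbB4, rose by 3.42 ± 0.50 over control and 3.32 ± 0.53 over 1 h, or by 4.07 over control without control array 5. Circadian genes gave 3 higher and 5 lower of 18 (16.7% and 27.8%, close to the shares over all genes), with Per3 at -1.49, the output factor Hlf at -1.26 and its antagonist Nfil3 at 1.96 ± 0.40; the labels do not state the hour of sampling. Of 20 pericentral Wnt target genes 14 fell (8 on the values as deposited) and 0 rose, with the receptor Lgr5 at -1.40 and the feedback ligases Rnf43 and Znrf3 at -1.06 and -0.87, whereas Glul and Cyp2e1, also pericentral, were at 0.14 ± 0.14 and -0.024 ± 0.044 and not called. With its probe sets averaged Znrf3 was at -0.236 and not called.

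Of 17 tight and gap junction genes 10 fell and 6 rose (2 on the values as deposited). Against minor trauma 4 of them were lower and 5 higher (23.5% and 29.4%, against 18.6% and 10.7% over all genes). Without minor trauma array 3 the counts were 2 and 5. The median of the list was -0.76 against control and -0.21 against minor trauma. Cldn1, a sealing claudin, read 9.08, 9.05, 7.42, 7.33 and 6.27 in control, 8.64, 8.25, 8.003 and 8.12 at 1 h, 5.79, 5.54 and 5.72 in minor trauma and 5.16, 4.99, 5.27 and 5.52 at 4.5 h. The 4.5 h arrays lay below all control and 1 h arrays (-2.60 ± 0.38 against control, adjusted p = 1.63e-05), and the difference from minor trauma was not called (-0.45 ± 0.44, adjusted p = 0.479). Ocln (occludin) fell (-1.93), Tjp3 (-1.90), and Gjb1 (connexin 32), the main hepatocyte connexin (-1.18). Gja1 (connexin 43), found in non-parenchymal cells, and Cldn14 rose by 2.02 ± 0.23 and 2.96 ± 0.31. Matrix genes gave 12 higher and 0 lower of 23, of which 5 lay at or below the array median on every array of the group where they were lower. Timp1, an inhibitor of matrix proteases, rose at least 4.51-fold (means 3.86 ± 0.40 and 6.78 ± 0.28, SD) and Mmp13, a collagenase, at least 5.23-fold (means 3.31 ± 0.41 and 6.99 ± 0.41, SD). The collagens Col1a1 and Col1a2 were at -0.41 ± 0.28 and -0.040 ± 0.14, neither called, and the basement membrane collagen Col4a1 rose by 1.83 ± 0.15. Among vasoactive genes 4 of 13 rose and 2 fell, the latter being the receptors Agtr1a (-1.78) and Adra1b (-1.53), for angiotensin II and noradrenaline; endothelin (Edn1) rose by 1.28 ± 0.30.

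Of 34 nucleolar and ribosome biogenesis factors 20 rose and 0 fell, but 5 rose on the values as deposited and 13 after median centring. The fitted changes were largest for Nop58, a core protein of the particles that guide methylation of ribosomal RNA, at 2.11 ± 0.38 and Heatr1 at 2.02 ± 0.16, which was 0.74 when its probe sets were averaged. Of 25 translation factors and tRNA synthetases 13 rose (3 on the values as deposited and 9 after median centring) and 0 fell, led by Eif1a at 1.74 ± 0.21 and Eif6 at 1.28 ± 0.12; Wars, the tryptophanyl-tRNA synthetase, which interferon-gamma also induces in human cells, rose by 1.21 ± 0.19. Against minor trauma 2 of the 34 nucleolar genes were higher and 0 lower, and without minor trauma array 3 the higher count was 1. Limma called 0 of 19 cytosolic ribosomal protein genes against control, 0 had an unadjusted p of at most 0.05, and their log2 fold changes ran from -0.091 (Rpl11) to 0.29 (Rpl37). Of 31 respiratory chain and ATP synthase genes 12 fell and 0 rose, all by less than 0.6 on the log2 scale (1 fell on the values as deposited, 4 after median centring and 7 after scaling to a trimmed mean), with Sdhd at -0.59 ± 0.11. Cell cycle genes gave 1 higher and 2 lower of 17, with Mki67 and Top2a at 0.18 ± 0.42 and 0.20 ± 0.34 and not called. Among tubulins 4 of 8 fell and 1 rose; Tuba4a fell (-1.51), and Tubb2a was at -1.29 ± 0.44 against control, a call lost when control array 1 or 2 or 4.5 h array 1, 2 or 3 was left out, and at -3.31 ± 0.47 against 1 h.

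**Figure D5:**
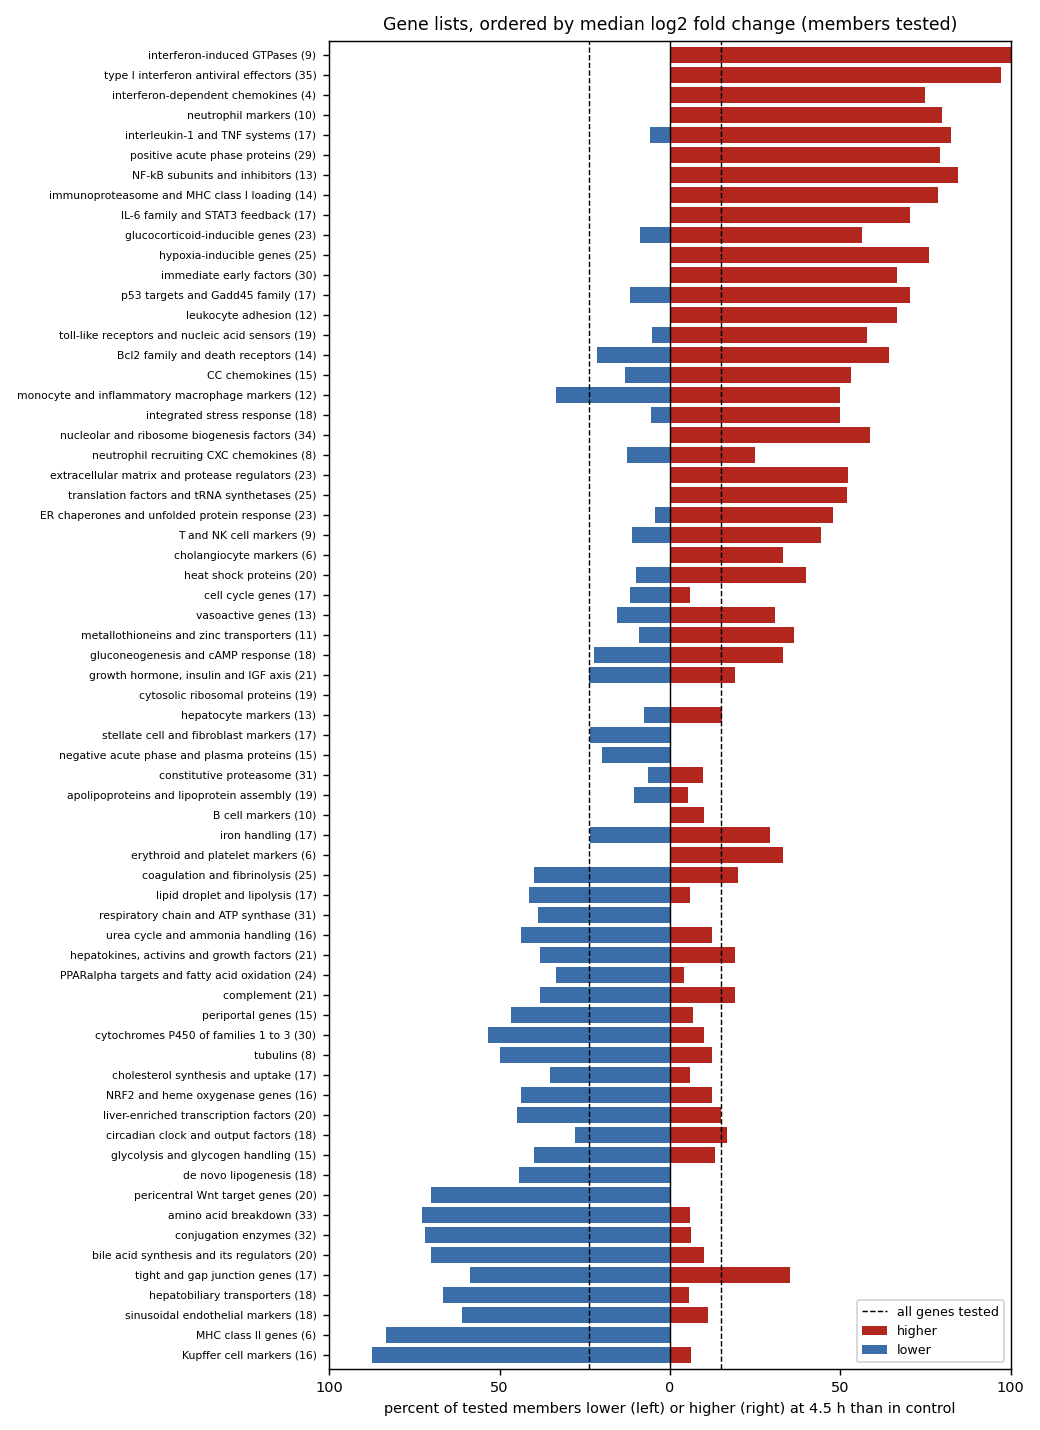
Percent of the tested members of each of 66 gene lists that were higher (right) or lower (left) at 4.5 h than in control, ordered by median log2 fold change, with the number tested in brackets and the shares over all genes tested (15.1% higher and 23.8% lower) as dashed lines. Interferon lists fill the top, and Kupffer cell markers, MHC class II, sinusoidal endothelial markers and transporters the bottom.

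Several genes with the steepest falls belong to none of these groups. Tmem25, a membrane protein of the immunoglobulin superfamily, read 7.98, 8.11, 8.39, 7.93 and 7.04 in control and 4.36, 4.20, 3.60 and 4.73 at 4.5 h, without overlap (-3.67 ± 0.27, adjusted p = 1.38e-09). Sucnr1, the receptor for succinate, went from 9.58, 9.62, 7.62, 8.01 and 6.85 to 5.16, 4.89, 4.52 and 5.29 (-3.37 ± 0.43, adjusted p = 2.49e-06). Clec2h, a C-type lectin-like gene, fell at least 4.92-fold and Tmie at least 4.25-fold, with means of 6.90 ± 1.33 and 6.69 ± 0.41 in control and 3.34 ± 0.43 and 3.57 ± 0.21 at 4.5 h (SD), the latter at or below the array median on every array. Paqr7 (a membrane progestin receptor) fell (-3.21), Gas1 (-3.04), Arrdc3 (an arrestin-domain protein) (-2.89), Hykk (hydroxylysine kinase) (-2.86), Kcnk5 (a potassium channel) (-2.86) and Keg1 (-2.79, adjusted p at most 3.04e-05). With probe sets averaged the falls of Clec2h, Paqr7, Tmie, Kcnk5 and Hykk were smaller, at -2.72, -2.54, -2.08, -1.87 and -1.81, and still called.

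Between 1 h and 4.5 h the largest rises were interferon genes and A2m, and the largest falls were of mixed kind. Cmpk2 rose by 5.995 ± 0.28 over 1 h, Ifit3 by 5.34 ± 0.16, A2m by 5.12 ± 0.39, Gbp2 by 5.06 ± 0.26, Ifit1 by 4.96 ± 0.33 and Usp18 by 4.68 ± 0.26 (adjusted p at most 3.09e-09). Rgs16, a brake on G protein signalling, read 5.53, 5.06, 6.98, 9.001 and 7.89 in control, 9.85, 8.62, 9.04 and 10.45 at 1 h and 4.70, 4.84, 5.23 and 5.31 at 4.5 h. It fell from 1 h (-4.47 ± 0.59, adjusted p = 6.61e-06) and lay below control as well (-1.87 ± 0.56, adjusted p = 0.0106), where the arrays of both groups overlapped. Ppp1r3g, a glycogen-targeting subunit that is induced by fasting, fell from 1 h (-3.31 ± 0.30) and was not called against control (0.52 ± 0.28, adjusted p = 0.157). G6pc, Ddc, Clec2h and Tubb2a, at -3.97, -3.53, -3.63 and -3.31, complete the 6 largest falls from 1 h.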

How the data were processed

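RNA of 20 mouse livers was measured on 1 Affymetrix array each, in 5 groups of 3 to 5 arrays named in the array titles. The deposited values are intensities of 45101 probe sets on a linear scale, computed by the authors with MAS5, per the submitters' processing notes; its version and any scaling are not given in the sources used here. Array medians were unequal, so 6 was added, log2 taken and the arrays quantile normalized. A probe set entered if it had 1 gene symbol in the platform annotation (34945 did, 932 had several and 9160 none, apart from 64 control probe sets) and lay above the median of its array on at least 3 arrays, and each of 12832 genes was represented by its probe set of highest mean level. With limma 3.58.1 (R 4.3.3), the 5 group means were fitted over all 20 arrays, with an intensity trend and Benjamini-Hochberg adjustment over all genes, with 0.05 as the limit of the adjusted p. Figures were drawn with matplotlib 3.10.9 (Python 3.11.15).

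The comparison, its members and the 66 gene lists (1219 symbols, 1063 tested) were chosen with earlier results of these data known, so list counts are descriptions. Members that lay above the median of their array through 1 group only had to differ, and members not tested are not analysed here. Members at or below the array median on every array of the lower group were most in CC chemokines (5 of 15) and matrix genes (5 of 23). Immediate early factors held 4 of 30 and neutrophil markers 3 of 10. Named genes are the 15 largest rises and falls against control among called genes, leaving out clone names, from each list up to 4 called members that differed most, the 6 largest rises and falls against 1 h, and other list members given for their role. Replicate numbers do not pair the arrays: same-numbered deviations of the 4.5 h arrays correlated at -0.0615 to 0.0413 with control and 1 h arrays. The number of arrays limits the precision. The test was checked on simulated data. Promoter windows are from RefSeq, GRCm38.p6. Alternatives were other scalings, pseudocounts of 1 and 18, no filter or a filter on 10 arrays, the mean of the probe sets, moderation without a trend, array weights, blocks, subsets of arrays and each array left out.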

Additional observations from a re-analysis of the deposited data

Results flagged for a closer look

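Some values stood apart from the rest of their group: the gap from 1 array to its nearest neighbour, divided by the range of the group, passed the 95% critical value of Dixon. This was so for 41 of 534 groups of a named gene (7.68%), where chance gives about 1 in 20, and control array 5 held 14 of them. Values are log2 signals, and no cause was tested.

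Control array 5 lay above the others of its group for Acod1 (3.074, others 2.798 to 2.834), Hmox1 (7.91, others 6.637 to 6.949), Lcn2 (11.78, others 6.152 to 7.672), Mttp (10.78, others 10.22 to 10.36), Nop58 (8.756, others 6.769 to 7.338), Osmr (6.639, others 5.319 to 5.662), S100a8 (7.526, others 3.764 to 4.85), S100a9 (7.093, others 4.227 to 4.734) and Thbd (6.884, others 5.345 to 5.658), and below the others of its group for Fgfr4 (5.633, others 6.548 to 6.731), Gstm4 (8.409, others 9.011 to 9.148), Klkb1 (10.33, others 10.98 to 11.17), Nr2f6 (7.212, others 8.309 to 8.666) and Rnf43 (4.828, others 5.638 to 5.955). The 4.5 h array 4 lay above the others of its group for Chil3 (8.83, others 7.344 to 7.519) and Tubb2a (8.746, others 6.868 to 7.173), and below the others of its group for A2m (8.4, others 10.35 to 10.63), Cyp1a2 (11, others 11.33 to 11.39), Fasn (7.827, others 8.954 to 9.155) and Saa3 (12.25, others 12.64 to 12.67). The 4.5 h array 1 lay below the others of its group for Cd68 (6.318, others 6.979 to 7.066), Ddx58 (8.836, others 9.065 to 9.109), Ifit3 (12.01, others 12.42 to 12.43), Il6 (5.384, others 6.273 to 6.37), Mmp13 (6.384, others 7.146 to 7.281) and Mx1 (8.378, others 9.362 to 9.484).

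The 4.5 h array 3 lay above the others of its group for Afmid (8.161, others 7.691 to 7.749), Gstm4 (8.178, others 7.801 to 7.862), Marco (8.428, others 7.331 to 7.503), Selp (9.182, others 8.627 to 8.65) and Tap1 (9.595, others 9.464 to 9.478). Control array 3 lay above the others of its group for C1qc (9.421, others 8.612 to 8.798) and Ppbp (4.923, others 4.49 to 4.608), and below the others of its group for Tlr4 (3.159, others 4.547 to 4.644). Control array 1 lay above the others of its group for Slc39a8 (8.177, others 7.927 to 7.978), and below the others of its group for G6pc (9.37, others 10.41 to 10.72) and Hp (12.75, others 12.83 to 12.86). Control array 4 lay below the others of its group for A2m (2.757, others 4.061 to 4.353) and Ifitm3 (12.06, others 12.55 to 12.73). Control array 2 lay below the others of its group for Cd74 (8.185, others 8.931 to 9.221) and Ppp1r3g (3.422, others 3.981 to 4.021).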

How the results depend on the processing

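Against control, the replicate block gave 5136 called genes (2053 higher, 3083 lower) and the spike-in set as a block 4937, and the replicate block ended 1 of the 228 calls of named genes, Cdh5. Only the control group has a replicate 5, so the replicate block also takes control array 5 out of the comparison. It is therefore not separate from leaving that array out. Without normalization between arrays, 2917 genes were called against control (792 higher), 1731 against 1 h (574 higher, 1157 lower), and 422 were higher than in minor trauma; there 3243 were called. Median centring gave 1243 genes higher than at 1 h, and 802 higher and 3701 lower than in minor trauma. Against control the higher genes were 38.8% of the calls, 27.2% without normalization and 33.8% after median centring; against 1 h the share was 45% and became 33.2% and 33.3%, and against minor trauma 36.6% and became 13% and 17.8%. On arrays with the spike-in alone, which are fewer, 2645 genes were called against control (1131 higher, 1514 lower), 1450 against 1 h (679 and 771) and 2159 against minor trauma (784 and 1375). On arrays without it the counts were 2856 (1106 and 1750), 2259 (1019 and 1240) and 738 (435 and 303). Fitting the 2 groups alone gave 2506 genes against minor trauma, 1520 of them lower. Leaving out 1 array at a time gave 4467 to 5173 genes against control (1717 to 2039 higher, 2725 to 3134 lower), 3462 to 3929 against 1 h and, for the minor trauma arrays, 2905 to 3969 against minor trauma. The subsets hold fewer arrays, and the cause of the other moves was not tested. Over the other alternatives the counts against control ran from 4362 to 5701.

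Of the 228 named genes called against control, 4 lost their call when some array was left out (Cdh5, Epcam, Pf4 and Tubb2a), 12 without normalization, 5 when probe sets of a gene were averaged (Cpt1a, Epcam, Ern1, Tubb2a and Znrf3), 30 on spiked arrays alone and 29 on the others alone. Without control array 5 the folds of Cxcl1, Cyp2b10, Gadd45b, Lcn2, Mt1, Mt2, Nrg4, S100a8 and Saa2 over control grew by over 1.5 times, and the log2 fold change of Cyp2b10 went from 4.44 to 3.78 without control array 3. Averaging the probe sets of a gene moved the folds of 24 named genes by over 1.5 times, Gadd45b most (3.36 times), and the replicate block those of 9. A pseudocount of 1 moved those of 14 and a pseudocount of 18 those of 22. Sult1e1, Gzmb and Gadd45b, given without a bound, moved with both. On spiked arrays alone 25 moved and on the others alone 15. Fgg, Fkbp5 and Hamp were not called over all arrays and were called without control array 5. With genes at their bound, no list's median moved by more than 0.348. For 47 called genes another probe set was called in the opposite direction.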

Other observations

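Smaller gene groups held some called members at 4.5 h. Of 15 periportal genes, which are expressed by hepatocytes near the portal vein, 7 fell and 1 rose (median -0.24), and 4 fell on the values as deposited. Besides G6pc and Hal, the steep falls were Etnppl, a phospholyase of ethanolamine phosphate, at -1.57 ± 0.26 (adjusted p = 6.94e-05) and Aldh1b1, a mitochondrial aldehyde dehydrogenase, at -1.28 ± 0.27 (adjusted p = 7.40e-04), while Cps1, the entry enzyme of the urea cycle, was lower by a small amount (-0.19 ± 0.045). Etnppl read 10.62, 10.17, 10.76, 10.49 and 9.24 in control and 8.78, 8.37, 8.70 and 8.89 at 4.5 h. No 4.5 h array reached the control values. Of 6 cholangiocyte markers tested 2 rose and 0 fell, a share called that is below the 38.9% of all genes, Sox9 by 0.79 ± 0.23 and Epcam by 0.79 ± 0.25, and limma gave no member an unadjusted p of at most 0.05 in the downward direction. Of 6 erythroid and platelet markers 2 were called, also below that share; the platelet chemokines Ppbp and Pf4 rose by 0.75 ± 0.19 and 0.44 ± 0.17, and Alas2, the heme synthesis enzyme of red cell precursors, was at -0.23 ± 0.19 and not called. Without normalization between arrays Cps1, Sox9, Epcam, Ppbp and Pf4 were not called, and the calls of Epcam (4.5 h array 3 or 4) and Pf4 (any 4.5 h array but the first, or control array 1, 2 or 4) were also lost when a single array was left out. Among 11 metallothionein and zinc transporter genes 4 rose and 1 fell. Slc39a8, a zinc and manganese importer, was the one that fell (-0.84 ± 0.10, adjusted p = 1.09e-06), opposite to its relative Slc39a14 (2.11 ± 0.28). Against minor trauma no member of this list was higher by more than 0.574.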
